A study of Drosophila melanogaster with 20 samples.

Results

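The cuticle protein families of Drosophila were followed through EGFR-driven tumors of the wing imaginal disc, the larval epithelial sac from which the wing and part of the thorax form. Members were all probe sets with 1 gene symbol that starts with Cpr, Twdl, Lcp, Pcp, Ccp84, Edg or Vajk followed by a digit or a capital letter. The rule found 110 probe sets, each of a different gene, among the 13402 genes that 13441 probe sets with 1 symbol measured, of 16322 probe sets in all. They were 67 Cpr, 23 Twdl, 7 Lcp, 6 Ccp84, 4 Vajk and 3 Edg genes. A further 16 genes with such names, among them Pcp and Lcp1 to Lcp4, are not analysed here, 5 of them because their probe set is shared by 2 genes.

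Insect cuticle is a layer of chitin and protein outside the epidermis. It is secreted anew at each moult and at metamorphosis, in steps timed by pulses of the steroid hormone ecdysone. Cpr proteins carry the Rebers and Riddiford domain, which binds chitin, and so do the larval cuticle proteins (Lcp) and the Ccp84 proteins, which are named for a gene cluster. Tweedle (Twdl) proteins form another class, named for a mutant with a short, stout body. Edg genes were found as ecdysone-dependent genes of cultured discs. Genes of these families lie in tandem clusters, so that neighbours can be close copies of each other.

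RNA of about 20 pairs of wing discs was pooled for each Affymetrix array, and the submitters call the 4 samples of a group biological replicates. In the group names E stands for EGFR and EP for EGFR together with psqRNAi, which targets the gene pipsqueak (psq) by RNA interference. E_Ctrl and EP_Ctrl were discs of 12 hr that had not yet formed tumors, and they carried the same transgenes as the tumors. E_EHT and EP_EHT were early-hyperplastic tumors of day 4, and EP_LNT were late-neoplastic tumors of day 11. All 5 groups thus shared EGFR, and discs without it are not analysed here, so disc age and tumor growth cannot be told apart in any comparison over time. The driver of the transgenes, the sex of the larvae and their age are not given in the sources used here. The submitters discarded E_EHT replicate 1 on technical grounds, and without it n = 3 in E_EHT and n = 4 in each other group. Values are log2 levels from RMA, the authors' normalization of the arrays, and levels of different probe sets cannot be compared with each other.

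The target of the RNA interference, psq, was at 10.81 to 10.93 in E_Ctrl and 10.62 to 10.93 in EP_Ctrl, which overlap, and the difference of -0.09 did not pass (limma, adjusted p = 0.675). At day 4 it was at 11.12 to 11.21 in E_EHT and 10.49 to 10.93 in EP_EHT, a difference of -0.45 ± 0.10 (limma, adjusted p = 0.0163). From 12 hr to day 4, psq changed by -0.07 with psqRNAi and by 0.28 with EGFR alone (limma, adjusted p = 0.755 and 0.0845). The difference between these changes did not pass (-0.36, limma, adjusted p = 0.204). The array therefore does not show a lower psq transcript at 12 hr. Wing disc markers were present: 9 of 11 had a probe set, and all 9 were above the background level in every group. Their mean level was 9.82 to 10.10 on the EP_Ctrl arrays and 9.03 to 9.74 on the EP_LNT arrays. From 12 hr to day 11 the list had 1 gene up and 5 down, where 12.1% of all genes rose and 10% fell. Its median log2 fold change was -0.82. The background level, 6.67, is the 95th percentile of the mean levels of 114 odorant and gustatory receptor genes, which are made in chemosensory neurons and had a median of 5.41. RNA of other tissues or cell types was also present. The mean level of 6 salivary glue genes ranged from 8.09 to 11.6 on the E_Ctrl arrays and from 5.83 to 8.26 on the EP_LNT arrays. The mean of 3 fat body genes was 12.3 to 13.1 in EP_Ctrl and 10.1 to 10.6 in EP_LNT, and that of 6 haemocyte genes was 7.75 to 8.34 and 8.59 to 9.70 in the same groups. The mean of 3 myoblast and muscle genes was 8.71 to 8.83 in EP_Ctrl and 9.49 to 9.94 in EP_LNT.

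Among the 19 arrays, 3 stood apart in the cuticle genes. EP_Ctrl replicate 4 held 17 members (15.5%) at least 1 log2 unit above every other EP_Ctrl array, against 0.843% of all genes. EP_LNT replicate 4 held 8 members (7.27%) that far above and 2 that far below the other EP_LNT arrays, against 0.5% and 0.836% of all genes. EP_EHT replicate 2 held 5 members (4.55%) that far below, against 0.306% of genes. On the other 16 arrays, no array had more than 1 such member in either direction, as the plot of the share of genes beyond the other arrays shows. lncRNA:roX1, a transcript of the male dosage compensation complex, was at 7.87 on EP_LNT replicate 4 and at 12.05 or above on the other 18 arrays. ImpE2, an ecdysone-induced gene of discs, was at 12.15 on EP_LNT replicate 4 and 8.354 to 10.002 on the other EP_LNT arrays. It was at 8.31 on EP_EHT replicate 2 and 12.36 to 12.50 on the other EP_EHT arrays. These genes are named because they move with the arrays, and were chosen after their values were seen. The part that these differences had in the results was not tested, and calls of members that stood apart on these arrays are given with and without them.

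**Figure D1:**
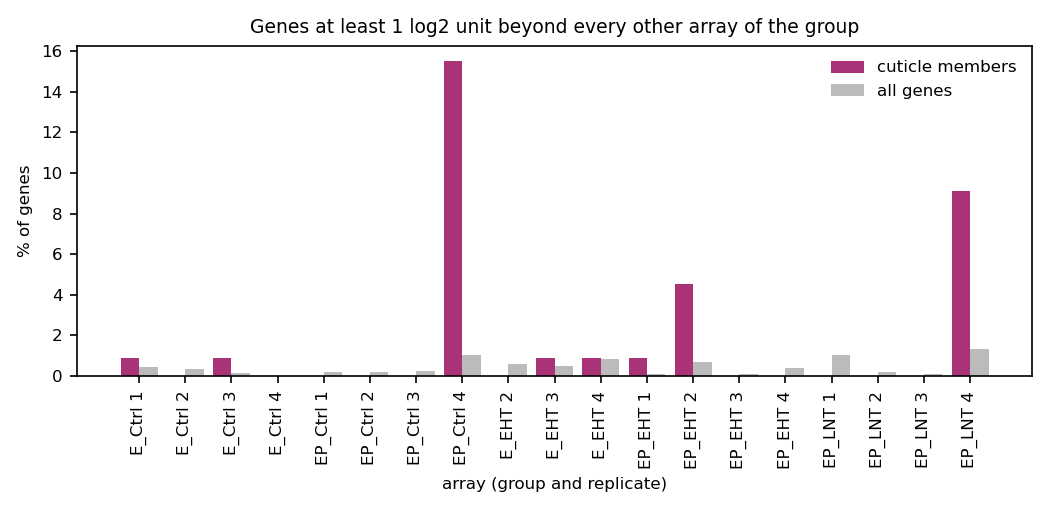
Share of genes (percent, vertical axis) that lay at least 1 log2 unit above or below every other array of their group, for the 110 cuticle members (purple) and for all 13402 genes (grey), on each of the 19 arrays. The bars of EP_Ctrl replicate 4, EP_EHT replicate 2 and EP_LNT replicate 4 stand out for the cuticle members.

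Most cuticle genes were not above the background level in any group. The group mean was above the background level in at least 1 group for 50 of 110 members (45.5%), against 62.7% of all genes, and in all 5 groups for 35 members. By group, 41 members were above it in E_Ctrl, 47 in EP_Ctrl, 39 in E_EHT, 43 in EP_EHT and 41 in EP_LNT. The 50 were 35 of 67 Cpr genes, 7 of 23 Twdl genes, 3 of 7 Lcp genes, 3 of 4 Vajk genes, 1 of 6 Ccp84 genes (Ccp84Ae) and 1 of 3 Edg genes (Edg78E). The 7 Twdl genes were TwdlC, TwdlE, TwdlO, TwdlQ, TwdlT, TwdlV and TwdlX, and the 3 Lcp genes were Lcp9, Lcp65Aa and Lcp65Ac. With the highest chemoreceptor mean as the level instead, 35 members were above it, and with the 90th percentile 58 were. The level comes from other probe sets, so it is a rough guide, and a probe set under it can still respond. Cpr65Ay was at 5.95 on EP_Ctrl replicate 4 against 3.84 to 4.05 on the other EP_Ctrl arrays.

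The 5 group means of a member spanned a median of 0.27 log2 units, close to the 0.26 of all genes. Yet 18 members (16.4%) spanned at least 1 unit, against 6.08% of all genes. These were 12 Cpr genes, Vajk2 and Vajk3, TwdlE and TwdlT, and Lcp9 and Lcp65Af, and none was an Edg or Ccp84 gene. Of the 18, 2 were not above background in any group. The spans of Cpr65Av and Cpr78Ca leaned on EP_Ctrl replicate 4. They were at 9.64 and 9.23 there, against 5.55 to 5.88 and 6.69 to 7.76 on the other EP_Ctrl arrays. The widest spans were those of Vajk2 (3.12), Vajk3 (3.09) and Cpr49Ag (2.94).

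**Figure D2:**
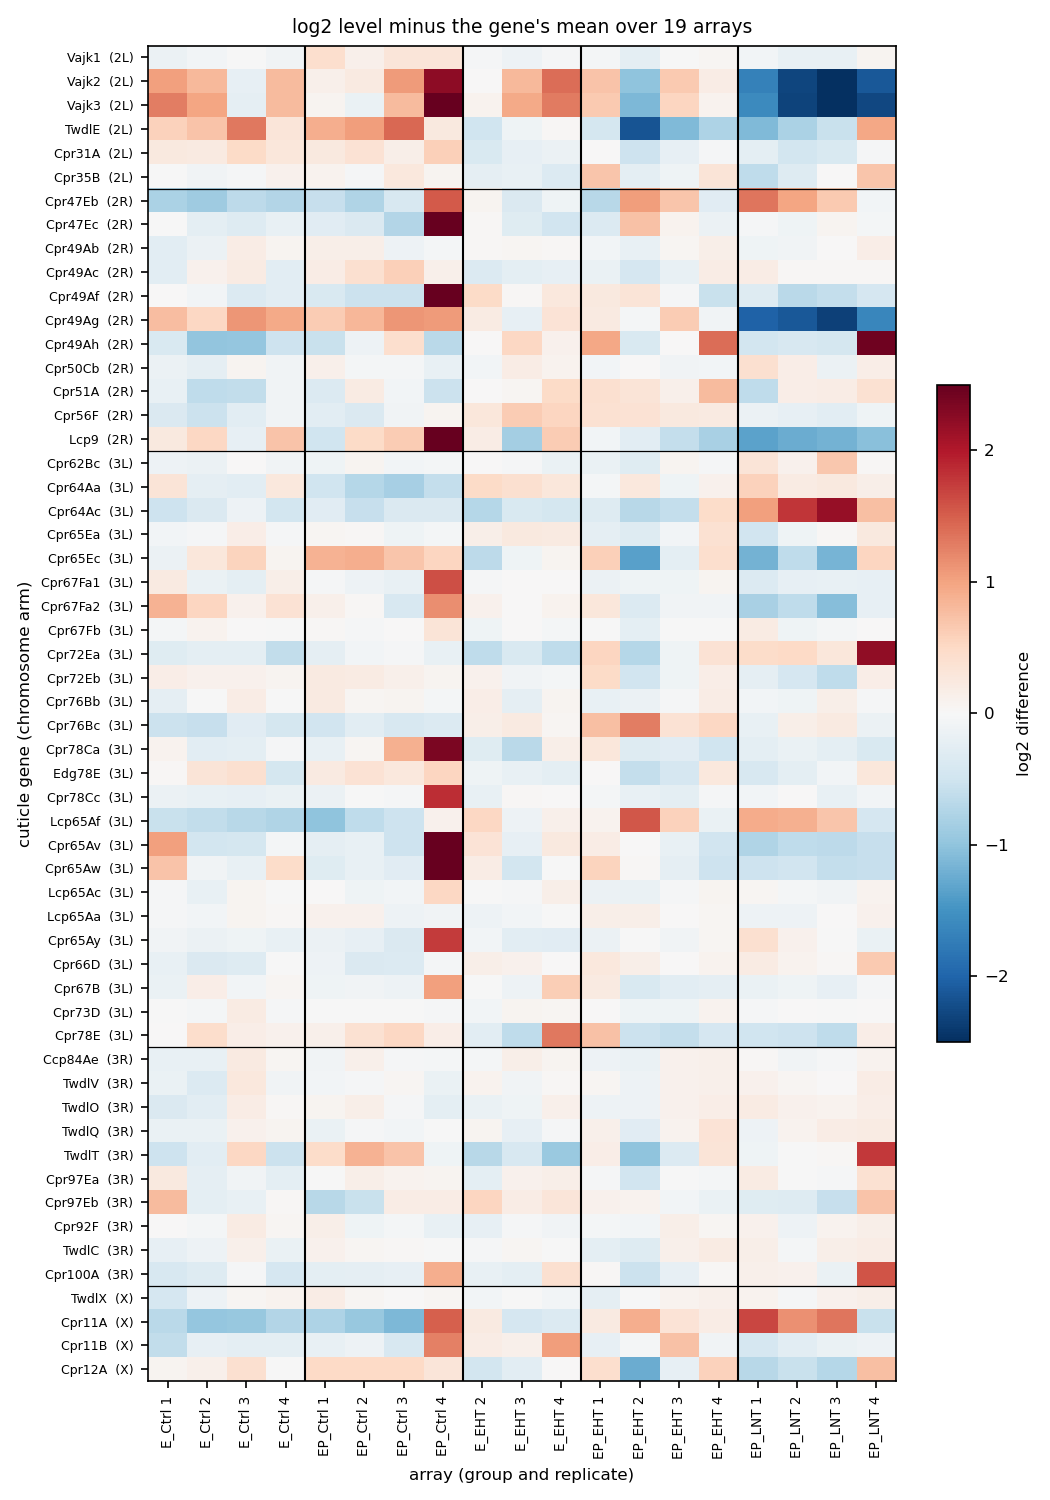
Log2 level of a gene on an array minus the gene's mean over the 19 arrays (colour, limited to 2.5 units either way), for the 56 members that were above background in a group, spanned at least 1 unit over group means or spanned at least 1.5 units over arrays. Rows are ordered by chromosome arm and vertical lines separate the 5 groups, and the single red columns of EP_Ctrl replicate 4 and EP_LNT replicate 4 and the blue block of Vajk2, Vajk3 and Cpr49Ag in EP_LNT can be seen.

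Gene order was read from the RefSeq gene table (Release 6 plus ISO1 MT). On that order, 82 of the 110 members lay in 16 clusters, a cluster being at least 3 members on 1 arm with no more than 5 other genes between neighbours, and 28 lay outside. There were 40 members on arm 3L, 32 on 3R, 22 on 2R, 9 on 2L and 7 on X. At least 1 comparison called 19 members (17.3%), where 28.7% of all genes were called in at least 1. These were 14 of the 82 members in clusters (17.1%) and 5 of the 28 outside (17.9%), which is about the same share, and the 14 came from 10 of the 16 clusters. The cluster with every member called in a comparison was Vajk1 to Vajk3, from 12 hr to day 11.

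Vajk1, Vajk2 and Vajk3 lie together on arm 2L. Vajk2 was at 10.35, 10.14, 9.12 and 10.11 in E_Ctrl and at 9.45, 9.54, 10.38 and 11.57 in EP_Ctrl. It was at 9.33, 10.13 and 10.71 in E_EHT, at 10.04, 8.32, 9.98 and 9.51 in EP_EHT and at 7.64, 7.02, 6.58 and 7.20 in EP_LNT. All 4 day 11 arrays thus lay below the other 15. Vajk2 fell from day 4 to day 11 by 2.35 ± 0.47 on the log2 scale (SE, adjusted p = 0.00503), and from 12 hr to day 11 by 3.12 ± 0.47, an 8.71-fold fall (adjusted p = 0.000127). Because whole tissue was measured, fewer cells that make a transcript and less of it per cell cannot be told apart.

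Vajk3 had the same order. It was at 9.59, 9.31, 8.10 and 9.10 in E_Ctrl, at 8.39, 8.15, 9.12 and 11.14 in EP_Ctrl and at 8.41, 9.27 and 9.62 in E_EHT. It was at 8.98, 7.20, 8.86 and 8.41 in EP_EHT and at 6.73, 6.01, 5.64 and 6.05 in EP_LNT, where 3 of 4 arrays were under the background level. Vajk3 fell by 2.25 ± 0.55 from day 4 to day 11 (adjusted p = 0.0200) and by 3.09 ± 0.55 from 12 hr to day 11 (adjusted p = 0.00061). Counted from the background level, it was at least 3.19-fold and at least 5.70-fold lower. The fall from day 4 was lost without EP_EHT replicate 1 or 3 or EP_LNT replicate 2 or 3 (largest adjusted p = 0.0682). Without EP_Ctrl replicate 4, the highest array for both genes, the log2 fold changes from 12 hr were -2.68 for Vajk2 and -2.44 for Vajk3, and both passed. Without EP_EHT replicate 2, the lowest day 4 array for both, the log2 fold changes from day 4 were -2.73 and -2.64, and both passed. Most marker lists moved from 12 hr to day 11 too, where 12.1% of all genes rose and 10% fell. Of the wing disc markers 5 of 9 fell and 1 rose. Of the fat body genes 3 of 3 fell (median log2 fold change -2.47) and of the salivary glue genes 2 of 6 (median -3.33). All 6 haemocyte genes and all 3 myoblast and muscle genes rose, with medians of 1.12 and 0.97. Of the 3 measured tracheal genes 1 rose and 2 fell (median -0.33). Of the 3 neuron and glia genes 0 passed (median -0.11). The part of these lists in the day 11 changes of Vajk2, Vajk3 and the members that follow was not tested.

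Vajk1 moved on a much smaller scale and close to the background level of 6.67, which 15 of the 19 arrays exceeded. It was at 6.67, 6.75, 6.81 and 6.72 in E_Ctrl and at 7.25, 6.94, 7.11 and 7.11 in EP_Ctrl, with no overlap. Vajk1 was the 1 member that rose with psqRNAi at 12 hr, by 0.36 ± 0.08 (adjusted p = 0.0153), a call lost without EP_Ctrl replicate 1, E_Ctrl replicate 1 or E_Ctrl replicate 4 (largest adjusted p = 0.0662). With psqRNAi it was 0.35 lower at day 4 (adjusted p = 0.0142) and 0.38 lower at day 11 (adjusted p = 0.00147) than at 12 hr, and the first of these was lost without EP_Ctrl replicate 1 or EP_EHT replicate 2 (largest adjusted p = 0.103). With EGFR alone the day 4 difference was 0.02 (adjusted p = 0.917), and the difference between the genotypes in that change was -0.37 ± 0.11 (adjusted p = 0.159), which did not pass. Vajk4, on arm 2R, was under background in all groups, with group means that spanned 0.20 units.

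**Figure D3:**
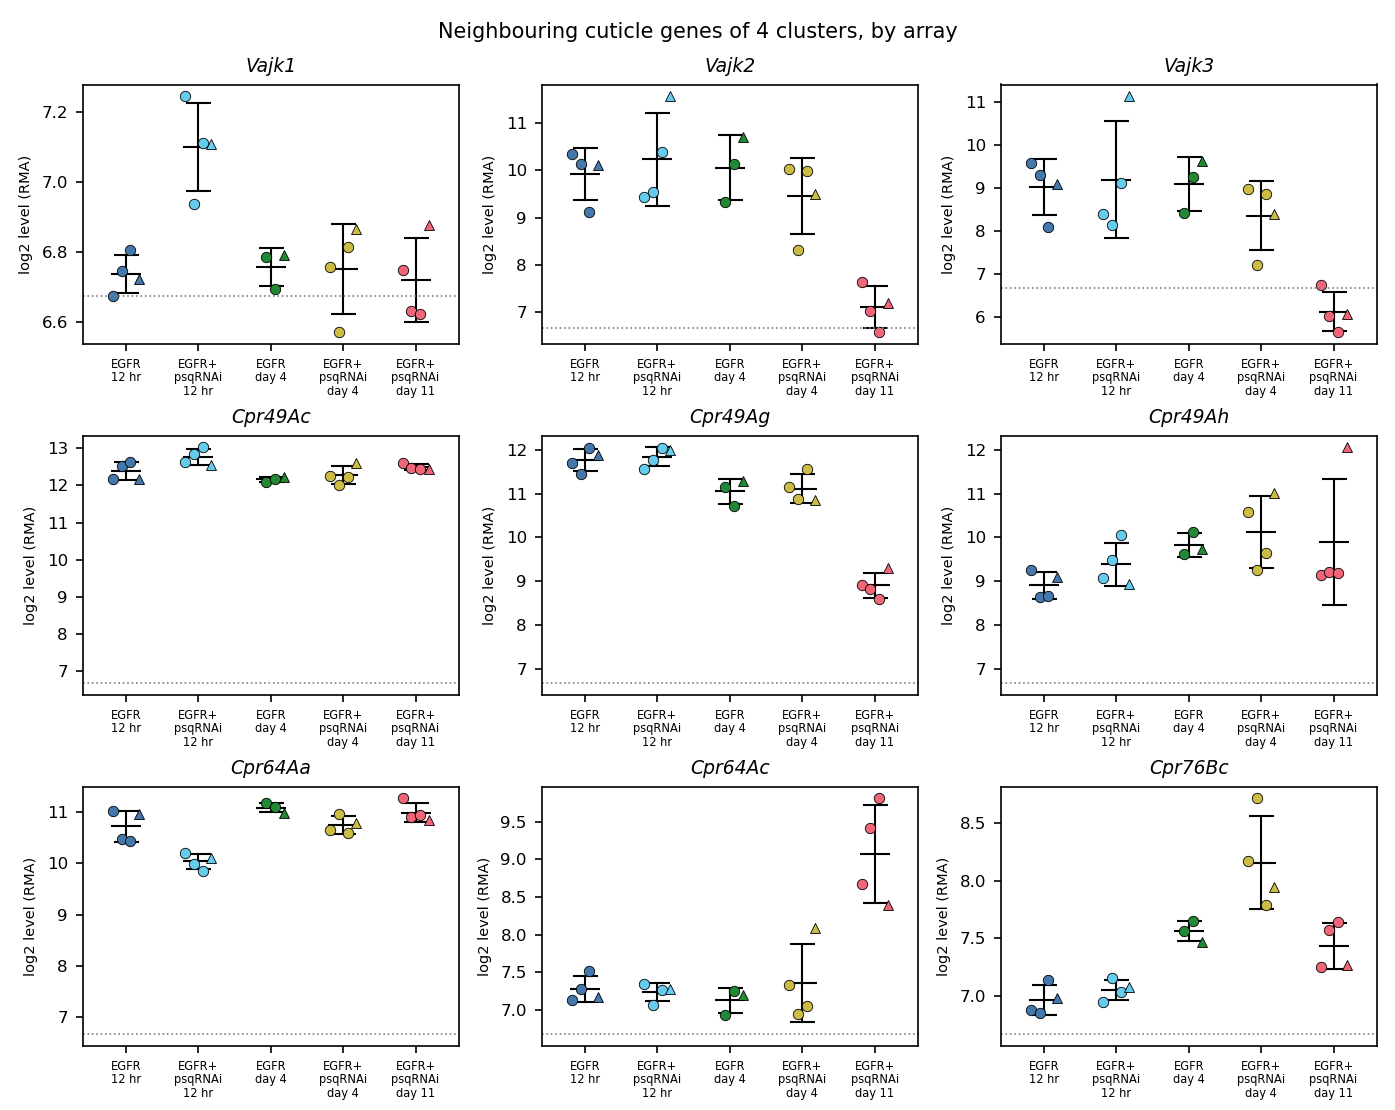
Log2 level on each of the 19 arrays for 9 genes of the Vajk, Cpr49A, Cpr64A and Cpr76B clusters, by group, with the horizontal line and bar for the mean ± SD (n = 3 in EGFR day 4, n = 4 in the others), triangles for replicate 4 and the dotted line for the background level. The scale differs between panels. Vajk2, Vajk3 and Cpr49Ag are lowest on the 4 day 11 arrays, Cpr64Ac is highest there, and Cpr64Aa is lowest with psqRNAi at 12 hr.

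The 8 genes from Cpr49Aa to Cpr49Ah on arm 2R held the fall with the smallest adjusted p among the members, that of Cpr49Ag. Cpr49Ag was at 11.69, 11.45, 12.03 and 11.89 in E_Ctrl and at 11.57, 11.77, 12.03 and 12.00 in EP_Ctrl. It was at 11.14, 10.73 and 11.28 in E_EHT, at 11.16, 10.89, 11.57 and 10.85 in EP_EHT and at 8.91, 8.82, 8.60 and 9.30 in EP_LNT. The EP_LNT arrays did not overlap with any other, and the day 4 arrays lay mostly below those of 12 hr. Cpr49Ag fell by 2.21 ± 0.18 from day 4 to day 11 (adjusted p = 5.70e-06) and by 2.94 ± 0.18 from 12 hr to day 11, a 7.66-fold fall (adjusted p = 1.66e-08), and both held under every alternative. The falls from 12 hr to day 4 were 0.71 ± 0.20 with EGFR (adjusted p = 0.0408) and 0.73 ± 0.18 with EGFR and psqRNAi (adjusted p = 0.0309). The first was lost without E_Ctrl replicate 1, 3 or 4 or any E_EHT array (largest adjusted p = 0.186), and the second without EP_Ctrl replicate 2, 3 or 4 or EP_EHT replicate 1, 2 or 4 (largest adjusted p = 0.111).

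Cpr49Ac, in the same cluster, was near the top of the scale in every group, with means of 12.38 ± 0.24 (SD), 12.76 ± 0.21, 12.17 ± 0.07, 12.28 ± 0.25 and 12.50 ± 0.08 from E_Ctrl through EP_Ctrl, E_EHT and EP_EHT to EP_LNT. It fell from 12 hr to day 4 with psqRNAi by 0.48 ± 0.13 (adjusted p = 0.0435), a call lost without EP_Ctrl replicate 1, 2 or 3 or EP_EHT replicate 1, 2 or 3 (largest adjusted p = 0.155). Cpr49Ah differed from both. It was at 9.15, 9.21, 9.18 and 12.06 in EP_LNT, so that replicate 4 was 7.20-fold above the nearest other array. The 3 others lay within the 8.64 to 11.02 of the 4 other groups, and no comparison called the gene (smallest adjusted p = 0.365). Cpr49Af was at 6.83, 6.68, 6.68 and 10.63 in EP_Ctrl and at 6.55 to 7.69 on the other 15 arrays, and no comparison called it either. Cpr49Ab had group means of 7.76 to 7.84, and Cpr49Aa, Cpr49Ad and Cpr49Ae were under background in every group.

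The 4 genes from Cpr64Aa to Cpr64Ad on arm 3L held a rise. Cpr64Ac was at 7.12, 7.27, 7.51 and 7.17 in E_Ctrl, at 7.34, 7.06, 7.27 and 7.28 in EP_Ctrl and at 6.93, 7.25 and 7.19 in E_EHT. It was at 7.32, 6.95, 7.05 and 8.09 in EP_EHT and at 8.67, 9.42, 9.82 and 8.39 in EP_LNT, so every day 11 array was above all others. Cpr64Ac rose by 1.72 ± 0.26 from day 4 to day 11 (adjusted p = 0.000896) and by 1.84 ± 0.26 from 12 hr (adjusted p = 9.14e-05). With only EP_EHT and EP_LNT in the fit, the rise from day 4 had an adjusted p of 0.0511.

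Cpr64Aa, in the same cluster, was the 1 member that fell with psqRNAi at 12 hr. It was at 11.01, 10.48, 10.43 and 10.96 in E_Ctrl and at 10.20, 9.99, 9.86 and 10.11 in EP_Ctrl, with no overlap, a fall of 0.68 ± 0.13 (adjusted p = 0.0104). The call was lost without E_Ctrl replicate 4 and with only these groups in the fit (largest adjusted p = 0.0626). At day 4 the means were 11.09 ± 0.10 in E_EHT and 10.75 ± 0.17 in EP_EHT, a difference of -0.34 ± 0.14 that did not pass (adjusted p = 0.233). With psqRNAi, Cpr64Aa rose from 12 hr by 0.71 to day 4 (adjusted p = 0.00581) and by 0.95 to day 11 (adjusted p = 7.28e-05). Both rises held under every alternative. Cpr64Ab and Cpr64Ad were under background in every group.

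In the Cpr76Ba to Cpr76Bd cluster on 3L, the gene that changed was Cpr76Bc. It was at 6.88, 6.85, 7.14 and 6.99 in E_Ctrl, at 6.95, 7.16, 7.03 and 7.08 in EP_Ctrl and at 7.57, 7.65 and 7.47 in E_EHT. It was at 8.17, 8.71, 7.79 and 7.95 in EP_EHT and at 7.25, 7.57, 7.64 and 7.27 in EP_LNT. All day 4 and day 11 arrays were thus above all 12 hr arrays, and EP_EHT was the highest group. Cpr76Bc rose to day 4 by 0.60 ± 0.16 with EGFR (adjusted p = 0.0362) and by 1.10 ± 0.15 with EGFR and psqRNAi (adjusted p = 0.000492). It then fell by 0.72 ± 0.15 to day 11 (adjusted p = 0.00624). Between the genotypes at day 4 the arrays did not overlap and the difference was 0.59 ± 0.16, with an adjusted p of 0.0539 that missed the threshold. The rise with EGFR alone was lost without E_Ctrl replicate 1, 2 or 4 or any E_EHT array (largest adjusted p = 0.129), and the fall to day 11 with only its own groups in the fit (adjusted p = 0.123).

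Outside the clusters, Cpr56F on 2R was higher at day 4 than at the other times. It was at 7.04 to 7.39 in E_EHT and 6.98 to 7.14 in EP_EHT, against 6.23 to 6.67 in E_Ctrl, 6.39 to 6.83 in EP_Ctrl and 6.49 to 6.65 in EP_LNT. It rose by 0.80 ± 0.11 with EGFR (adjusted p = 0.00104) and by 0.47 ± 0.10 with psqRNAi (adjusted p = 0.0146), and fell by 0.49 ± 0.10 to day 11 (adjusted p = 0.00720). Its 12 hr and day 11 means were under background, so the folds are bounds, of at least 1.49, 1.27 and 1.31. The rise with psqRNAi was lost without EP_Ctrl replicate 1 or 2 or EP_EHT replicate 2 (largest adjusted p = 0.0558). Cpr31A on 2L went the other way, from 7.12 to 7.55 on the 8 arrays of 12 hr to 6.45 to 6.98 on the 11 later ones. Cpr31A fell by 0.55 ± 0.13 to day 4 with EGFR (adjusted p = 0.0208), by 0.52 ± 0.12 with psqRNAi (adjusted p = 0.0204) and by 0.61 ± 0.12 to day 11 (adjusted p = 0.00139). The first was lost without E_EHT replicate 2 or 3 (largest adjusted p = 0.0892) and the second without EP_Ctrl replicate 2 or 4 or EP_EHT replicate 2 (largest adjusted p = 0.106). The genes Cpr51A, at 9.02 to 10.44, and Cpr66D, at 8.43 to 9.45, were expressed on all arrays, and Cpr66D rose from 12 hr to day 11 by 0.47 ± 0.12 (adjusted p = 0.00903). This call was lost with only EP_Ctrl and EP_LNT in the fit (limma, adjusted p = 0.0544).

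Among the Tweedle genes, TwdlE on 2L had the widest span of group means. It was at 9.95, 10.08, 10.68 and 9.66 in E_Ctrl, at 10.27, 10.42, 10.81 and 9.61 in EP_Ctrl and at 8.86, 9.26 and 9.40 in E_EHT. It was at 8.93, 7.21, 8.26 and 8.60 in EP_EHT and at 8.27, 8.58, 8.81 and 10.35 in EP_LNT. The 7 day 4 arrays were below all 8 arrays of 12 hr, and EP_LNT replicate 4 lay among those of 12 hr. TwdlE fell by 2.03 ± 0.41 to day 4 with psqRNAi (adjusted p = 0.00933) and by 1.28 ± 0.41 to day 11 (adjusted p = 0.0351). The first fall held under every alternative and was 1.68 without EP_EHT replicate 2. The second was 1.95 without EP_LNT replicate 4 and EP_Ctrl replicate 4, and it was lost without any 1 of the other 6 arrays of the 2 groups. With EGFR alone the difference was -0.92 ± 0.45 and did not pass (adjusted p = 0.233).

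TwdlT on 3R was at 8.04, 8.13, 8.16 and 9.91 in EP_LNT and at 7.14 to 9.01 on the other 15 arrays, and it was called in no comparison. The 13 genes from TwdlM to TwdlQ, also on 3R, form the longest run, and 2 of them, TwdlO and TwdlQ, were above background. Their group means spanned at most 0.36 units, and the cluster's mean stayed between 5.47 and 5.73 on the 19 arrays. The call there, a rise of TwdlL by 0.18 from 12 hr to day 11 (adjusted p = 0.0413), was at levels of 3.54 to 3.88 on the 8 arrays compared, far under background, and was lost under 13 of 17 alternatives. No fold is given for it.

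The larval cuticle genes were led by Lcp9 on 2R. It was at 8.20, 8.49, 7.75 and 8.68 in E_Ctrl, at 7.46, 8.43, 8.60 and 12.65 in EP_Ctrl and at 8.14, 7.10 and 8.59 in E_EHT. It was at 7.89, 7.69, 7.36 and 7.15 in EP_EHT and at 6.63, 6.73, 6.78 and 6.92 in EP_LNT. The day 11 arrays lay below all 15 others, and EP_Ctrl replicate 4 lay 16.5-fold above the nearest other EP_Ctrl array. Lcp9 fell from 12 hr to day 11 by 2.52 ± 0.73 (adjusted p = 0.0195), and by 1.40 without EP_Ctrl replicate 4, where it still passed. The call was lost with only EP_Ctrl and EP_LNT in the fit (adjusted p = 0.112).

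The 11 genes from Lcp65Ag3 to Cpr65Az on 3L, where Lcp and Cpr genes are interspersed, were mostly dim: 4 were above background in a group and 1, Lcp65Ac, in all 5. Cpr65Av was at 5.84, 5.88, 5.55 and 9.64 in EP_Ctrl and Cpr65Aw at 6.72, 6.84, 6.74 and 9.51, so both were high on replicate 4 alone, and neither was called. Lcp65Af, under background in every group mean, was at 5.06 to 6.16 in EP_Ctrl and at 6.99, 6.95, 6.77 and 5.65 in EP_LNT. It rose by 1.04 ± 0.34 from 12 hr to day 11 (adjusted p = 0.0373), and by 1.56 without replicate 4 of both groups, and the call was lost without any other array of either group (largest adjusted p = 0.113). Since both means were under background, no fold is given. The 6 Ccp84 genes and the 3 Edg genes had 0 calls in any comparison, where 17.3% of members and 28.7% of all genes had at least 1. Only 1 gene of each of these families was above background in a group, so the lack of calls says little about them. Their group means spanned at most 0.56 and 0.54 units. Edg78E was at 6.86 to 7.99 over the 19 arrays.

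**Figure D4:**
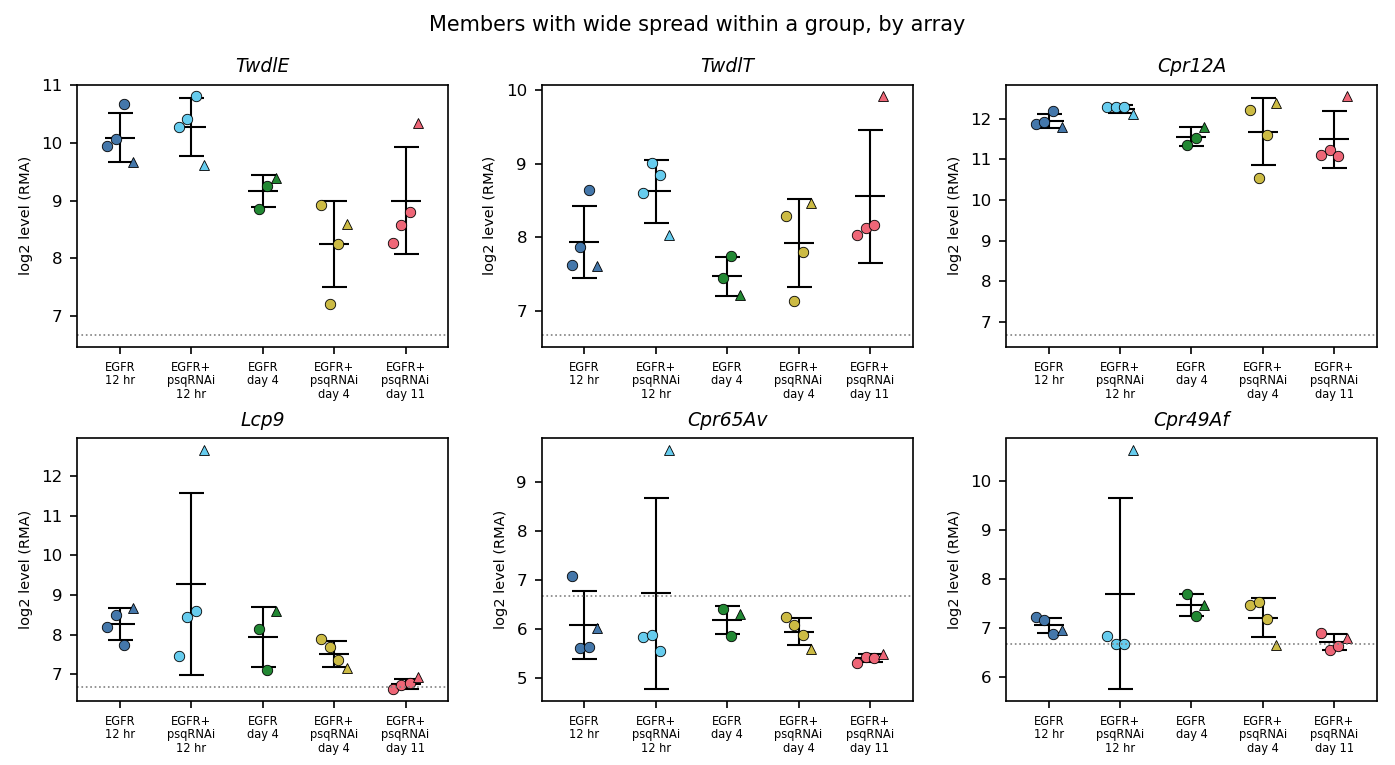
Log2 level on each of the 19 arrays for 6 members with a wide spread within a group, by group, with the mean ± SD (n = 3 in EGFR day 4, n = 4 in the others), triangles for replicate 4 and the dotted line for the background level. The scale differs between panels. In the upper row 1 day 11 array is high in TwdlE, TwdlT and Cpr12A, and in the lower row 1 array of EGFR with psqRNAi at 12 hr is high in Lcp9, Cpr65Av and Cpr49Af.

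Cpr genes, which are 67 of the 110 members, were also the most numerous among those high on EP_Ctrl replicate 4 and on EP_LNT replicate 4. Cpr100A was the 1 member at least 1 log2 unit above the other arrays on both. The 17 on EP_Ctrl replicate 4 were 14 Cpr genes, Lcp9, Vajk2 and Vajk3, and included no Tweedle gene. Besides those already given, Cpr47Ec was at 9.08 there against 5.67 to 6.10 on the other EP_Ctrl arrays, Cpr11A at 9.60 against 6.98 to 7.32 and Cpr47Eb at 9.09 against 6.81 to 7.16. The 8 on EP_LNT replicate 4 were 6 Cpr genes with TwdlE and TwdlT, where 23 of the 110 members are Tweedle genes. Cpr12A was at 12.55 there against 11.08 to 11.24 on the other EP_LNT arrays, and Cpr72Ea at 9.51 against 7.56 to 7.79. Cpr11A went the other way, at 7.54 there against 9.24 to 9.77. Cpr12A, Cpr65Ec and TwdlE, high on EP_LNT replicate 4, were low on EP_EHT replicate 2, at 10.55, 4.95 and 7.21 against 11.59 to 12.38, 6.05 to 6.90 and 8.26 to 8.93 on the other EP_EHT arrays. On EP_Ctrl replicate 4 the chitin-binding protein genes Gasp and obst-E were also high, at 12.24 against 11.50 to 11.75 and 7.69 against 5.68 to 5.97. Their relatives obst-A and obst-B were not, at 12.528 against 12.325 to 12.535 and 9.888 against 9.938 to 10.115. The wing pouch gene nub was at 10.30 on EP_LNT replicate 4 against 8.46 to 8.80.

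Between the genotypes at 12 hr, 2 of 110 members were called, Vajk1 up and Cpr64Aa down, while 2.43% of all genes were called (0.664% up and 1.76% down). A positive difference, tested or not, was found for 85 members (77.3%), against 50.3% of all genes, with a median of 0.10 against 0.00. Without EP_Ctrl replicate 4 the count was 69 members (62.7%, against 50.8% of genes) and the median 0.06, and the members that were at least 0.5 higher went from 10 to 3. At day 4 the comparison of the genotypes called 0 members by limma, where 3.17% of all genes were called (2.39% up and 0.783% down). An unadjusted p below 0.05 was found for 5 members and for 17.3% of all genes. Members' log2 differences had a median of -0.01, that of all genes.

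From 12 hr to day 4 with EGFR alone, 4 members were called, Cpr56F and Cpr76Bc up and Cpr31A and Cpr49Ag down, where 6.58% of all genes were called (1.97% up and 4.61% down). With EGFR and psqRNAi, 8 members (7.27%) were called, where 4.72% of all genes were called (2.95% up and 1.78% down). Cpr56F, Cpr64Aa and Cpr76Bc rose, and Cpr31A, Cpr49Ac, Cpr49Ag, TwdlE and Vajk1 fell. The medians of the members were 0.06 and -0.04, beside 0.02 and 0.01 for all genes. The difference between the genotypes in this change was called by limma for 0 members and 0 of all genes (0%), and 7 members and 2177 genes (16.2%) had an unadjusted p below 0.05.

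From day 4 to day 11, 7 members (6.36%) were called, close to the 6.99% of all genes (4.49% up and 2.5% down). Cpr62Bc and Cpr64Ac rose, and Cpr49Ag, Cpr56F, Cpr76Bc, Vajk2 and Vajk3 fell. From 12 hr to day 11, 16 members (14.5%) were called, where 22.1% of all genes were (12.1% up and 10% down). The 7 that rose were Cpr62Bc, Cpr64Aa, Cpr64Ac, Cpr66D, Cpr72Ea, Lcp65Af and TwdlL. The 9 that fell were Cpr31A, Cpr49Ag, Cpr65Ec, Cpr67Fa2, Lcp9, TwdlE, Vajk1, Vajk2 and Vajk3. The member medians were 0.02 and 0.01, beside 0.00 and 0.01 for all genes. These comparisons share arrays with each other, so their lists are not independent. Over all comparisons, 14 of the 37 calls held under every alternative, 23 were lost under at least 1, and none was reversed.

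Of the day 11 calls not described so far, 4 rested on dim or uneven arrays. Cpr72Ea rose from 12 hr by 0.99 ± 0.33 (adjusted p = 0.0394), and the difference was 0.54 and no longer passed without EP_LNT replicate 4, and it was also lost without any 1 of the EP_Ctrl arrays. Cpr67Fa2, with both means under background, fell by 0.91 ± 0.26 (adjusted p = 0.0180), and by 0.59 without EP_Ctrl replicate 4, where it did not pass. Cpr65Ec was at 7.18, 7.20, 6.99 and 6.83 in EP_Ctrl and at 5.12, 5.66, 5.13 and 6.83 in EP_LNT. It fell by 1.36 ± 0.39 (adjusted p = 0.0166), at least 1.27-fold when counted from the background level, and the call was lost without EP_LNT replicate 1 or 3. Without EP_LNT replicate 4 its log2 fold change was -1.75, and it passed. Cpr62Bc was under background at 12 hr and day 4, with means of 6.56 and 6.49, and at 6.91, 6.70, 7.28 and 6.62 in EP_LNT. It rose by 0.39 ± 0.11 from day 4 (adjusted p = 0.0453) and by 0.32 ± 0.11 from 12 hr (adjusted p = 0.0499), at least 1.15-fold in both when counted from the background level. The calls were lost under 8 and 10 of 18 alternatives, among them without EP_LNT replicate 1 or 3 (largest adjusted p = 0.263).

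**Figure D5:**
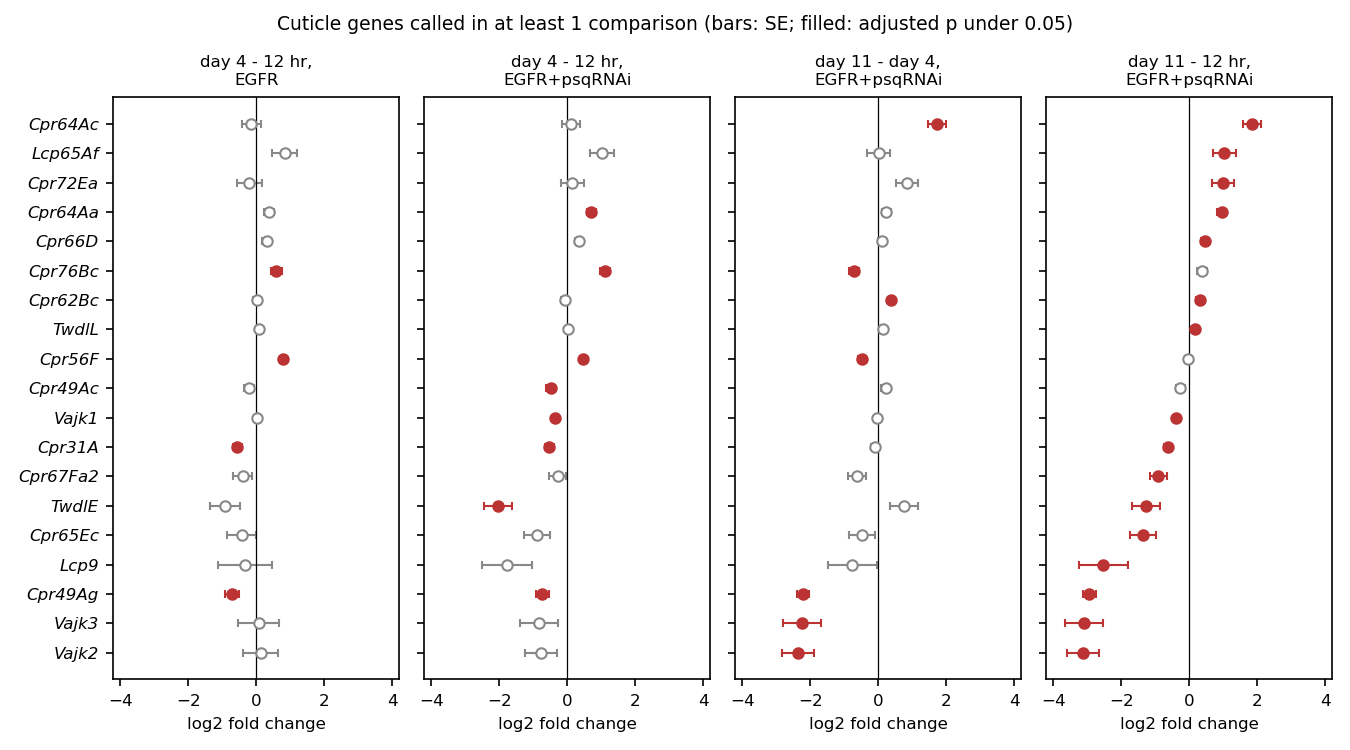
Log2 fold change (horizontal axis) with its SE for the 19 members called in at least 1 comparison, in the 4 comparisons over time, with filled points where the adjusted p was below 0.05. Cpr49Ag, Vajk2 and Vajk3 lie furthest to the left in both comparisons with day 11 and Cpr64Ac furthest to the right.

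Genes that make and process chitin, the scaffold these proteins bind, were taken as a list of 21, of which 19 were measured. From 12 hr to day 11, 6 rose, 1 fell and 12 did not pass, where 12.1% of all genes rose and 10% fell, with a median log2 fold change of 0.19 beside 0.01 for all genes. The chitin deacetylase gene serp rose by 0.62 ± 0.07 (adjusted p = 8.58e-06) and the chitinase gene Cht6 by 1.11 ± 0.15 (adjusted p = 5.88e-05). Another chitinase gene, Cht10, fell by 2.09 ± 0.36 (adjusted p = 0.000433), from 10.70 to 11.11 in EP_Ctrl to 8.05, 8.68, 8.56 and 10.08 in EP_LNT, where replicate 4 was again the highest. Without that array the log2 fold change was -2.5015 (adjusted p = 9.66e-06). With EGFR alone, 4 of the 19 rose to day 4 and 0 fell, where 1.97% of all genes rose and 4.61% fell. Among the 4 were Cht6 by 0.71 ± 0.16 (adjusted p = 0.0188) and the chitinase gene Cht7 by 0.51 ± 0.12 (adjusted p = 0.0174).

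Of 5 measured zona pellucida domain genes of the apical extracellular matrix, 4 fell from 12 hr to day 11 and 0 rose, where 10% and 12.1% of all genes did. They were dy (-0.92 ± 0.15, adjusted p = 0.000243), pio (-0.82 ± 0.13, adjusted p = 0.000216), mey and tyn. Of 7 measured genes of cuticle tanning and pigment, 3 fell, ple, Ddc and Pu, which serve catecholamine synthesis, and 1 rose, the pigment gene y, against the same shares of all genes. Pu fell by 1.05 ± 0.17 (adjusted p = 0.000252). The calls of ple and Ddc were lost without EP_Ctrl replicate 4 (adjusted p = 0.0557 and 0.106). On EP_LNT replicate 4 the 2 genes were at 9.97 and 8.31, against 8.61 to 8.74 and 5.94 to 6.85 on the other EP_LNT arrays. y was under background in EP_Ctrl, with a mean of 5.84, and at 7.03 in EP_LNT, and it rose at least 1.28-fold when counted from the background level (adjusted p = 1.09e-06). Of 4 measured cuticle proteins outside the families, Acp1, Acp65Aa, resilin and Tb, 0 were above background in all groups. None passed from 12 hr to day 11, and Tb fell from day 4 to day 11 (adjusted p = 0.0301) with both means under background.

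Of 16 measured genes of the ecdysone cascade, 4 rose, 9 fell and 3 did not pass from 12 hr to day 11, where 12.1% of all genes rose and 10% fell. From 12 hr to day 4 with psqRNAi 1 rose and 4 fell, where 2.95% and 1.78% of all genes did. ftz-f1, a nuclear receptor gene of the mid-prepupal stage, rose by 1.33 ± 0.17 to day 4 (adjusted p = 0.000232) and by 1.74 ± 0.17 to day 11 (adjusted p = 1.92e-06). Blimp-1, a repressor that delays ftz-f1, fell by 2.11 ± 0.46 (adjusted p = 0.0138) and 2.92 ± 0.46 (adjusted p = 0.000196), and the first fall was 1.67 without EP_EHT replicate 2 (adjusted p = 0.0484). Hr4 fell by 2.14 ± 0.50 to day 4 (adjusted p = 0.0213), a call lost without EP_EHT replicate 2 or EP_Ctrl replicate 4 (adjusted p = 0.0748 and 0.0601). To day 11, where its mean of 6.672 was at the background level, it fell at least 7.15-fold (adjusted p = 0.000272). With EGFR alone ftz-f1 rose to day 4 by 1.12 ± 0.18 (adjusted p = 0.00272), and Blimp-1 was spread from 7.66 to 9.75 over the 4 E_Ctrl arrays. How these genes bear on the cuticle genes was not tested.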

How the data were processed

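RNA of wing discs was hybridised to Affymetrix arrays. The deposited values are log2 levels. RMA made them, according to the submitters' processing notes, which also name limma, without versions. RMA compresses differences of dim genes. No genome build is given in the sources used here, so no coordinates are printed. Arrays have no read depth, and their number limits the precision: the median SE was 0.093 to 0.137. One model (limma 3.58.1, R 4.3.3, lmFit and eBayes without trend) held 19 arrays and 13402 genes, with the brightest probe set of the 37 genes that had several. P-values are two-sided limma values, Benjamini-Hochberg adjusted over all genes, threshold 0.05, and measure the spread between these samples. On simulated data, with normal noise and 1 SD per gene for all groups, 53% to 81% of 1.5-fold changes were recovered, by comparison. Such noise lacks single arrays that stand apart, so these shares need not hold for the cuticle genes. Alternatives were E_EHT replicate 1 kept, quantile normalization, median centring, dim genes removed, trended variance, array weights, only the groups compared, all probe sets, a replicate block and each array left out. Leaving out both replicates 4, and single arrays for genes of the lists, was added after seeing the data. Members and lists were chosen with earlier results of these data known. Members called, brightest, widest in range or spread, or leading a family or cluster have full statistics, as have up to 4 genes of a list per comparison. Cross-hybridisation of similar neighbours was not tested.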

Additional observations from a re-analysis of the deposited data

Results flagged for a closer look

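These values stood apart from the other 3 arrays of their group by a gap that was large for the group's range (Dixon's test at 95%). Chance marks about 1 in 20 groups, and over all members 39 of 440 pairs of member and group (8.86%) were marked. Of the marked members, only those called in a comparison are listed here, with all marked family and cluster means. Members that were not called can have stood apart further. EP_Ctrl replicate 4 was marked for the mean of the 67 Cpr genes, 7.15 against 6.67 to 6.68, for the Cpr47Ea to Cpr47Eg cluster, 6.76 against 5.93 to 6.01, and for the Lcp65Ag3 to Cpr65Az cluster, 6.68 against 5.67 to 5.76. EP_LNT replicate 4 was marked for the mean of the Cpr genes, 6.85 against 6.63, and for 3 clusters: Cpr49Aa to Cpr49Ah at 8.28 against 7.82 to 7.87, Cpr72Ea to Cpr72Ec at 7.26 against 6.379 to 6.497, and TwdlT to Cpr97Eb at 8.21 against 7.07 to 7.19. The same array was marked for Cpr72Ea, 9.51 against 7.56 to 7.79, and for Lcp65Af, 5.65 against 6.77 to 6.99. Cpr72Ea was also marked on E_Ctrl replicate 4, 6.68 against 6.995 to 7.046, and Cpr49Ac on EP_LNT replicate 1, 12.61 against 12.45 to 12.46. What set these arrays apart was not tested.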

How the results depend on the processing

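The counts of called members moved with some settings, and no call was reversed. For psqRNAi at 12 hr, the 2 members became 1 with E_EHT replicate 1 kept, 4 with array weights, 1 with only the groups compared and 0 to 4 with an array left out. At day 4, the 0 became 1 with E_EHT replicate 1 kept, with quantile normalization, without dim genes and with a trended variance, and 0 to 1 with an array left out. From 12 hr to day 4 with EGFR, the 4 became 7 with array weights, 8 with only the groups compared, 2 with the replicate block and 1 to 4 with an array left out. With psqRNAi, the 8 became 5 with E_EHT replicate 1 kept, 3 with only the groups compared and 3 to 9 with an array left out. From day 4 to day 11, the 7 became 4 with only the groups compared and 5 to 8 with an array left out. From 12 hr to day 11, the 16 became 10 and 11 to 21 in the same settings, and 24 with array weights. The difference between genotypes stayed at 0 in all 25 alternatives. Leaving out both replicates 4 together gave 2, 10, 10, 21 and 0 members in the 5 comparisons it touches. Without dim genes, 3 dim calls could not be made because those genes were removed. The causes were not tested. Same-numbered arrays of different groups did not deviate together more than others did. Their correlations were -0.40 to 0.37 over 36 pairs, 9 over 0.1. Those of differently numbered arrays were -0.48 to 0.50 over 108 pairs, 33 over 0.1. This shows no pairing by number, but cannot settle whether samples shared a batch. The replicate block gave 3, 0, 2, 7, 7, 16 and 0 members in the 7 comparisons. Signal over background limits the 60 members that no group showed above it.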

Other observations

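E_EHT replicate 1, which the submitters set aside, lay outside the range of the other 19 arrays for 46 of 110 members (41.8%) and for 46.8% of all genes. Cpr49Ag was at 11.81 on it, against 10.73 to 11.28 on the other E_EHT arrays, and Cpr64Ac at 6.60 against 6.93 to 7.25.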
